A study of Mus musculus with 4 samples.

Results

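The genes described here encode the proteins that carry the first steps of pre-B cell receptor signalling. They are 9 genes of the 24411 gene symbols in the deposited count table, taken by symbol: Cd79a, Cd79b, Lyn, Blk, Fyn, Syk, Btk, Blnk and Plcg2. All 9 were found, and all 9 were among the 13507 genes that passed the filter on low counts. RNA was sequenced from pro-B cells of mouse bone marrow (strain C57BL/6), sorted as cells positive for B220, CD43 and HSA, the heat-stable antigen CD24. The 2 control mice, numbers 55 and 69, were Tnpo3+/+ mb1Cre. The 2 knockout mice, numbers 51 and 63, were Tnpo3fl/fl mb1Cre. The mb1Cre allele, a Cre recombinase placed in the Cd79a locus and active in B-lineage cells, is thus shared by both genotypes, and Cd79a is both a gene described here and the locus of the driver. Tnpo3 encodes transportin 3, a nuclear import receptor for splicing factors. The sources used here do not give the ages of the mice. Every library is a separate mouse (n = 2 per genotype), so the error in each test is the variation from animal to animal. Each genotype held 1 female and 1 male, as read from the counts below, so this variation includes any difference between the sexes.

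As background, the pre-B cell receptor pairs a newly made immunoglobulin heavy chain with a surrogate light chain and reports that the heavy chain gene has been joined productively. Its signal runs through a pair of partner chains, Ig-alpha and Ig-beta (Cd79a and Cd79b), whose tails carry the tyrosine motif called the immunoreceptor tyrosine-based activation motif (ITAM). Src-family kinases (Lyn, Blk and Fyn) phosphorylate the motif, the kinase Syk docks on it and phosphorylates the adaptor Blnk, and Blnk brings the kinase Btk to the phospholipase Plcg2, which starts calcium and protein kinase C signalling.

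RefSeq promoters of GRCm38.p6 were matched for 6 of the 9 genes (Cd79a, Blnk, Btk, Syk, Plcg2 and Fyn), in 7 windows, since Syk had 2 start sites. The 250 bases before the start are printed for 3 of them: Cd79a and Blnk, whose transcripts were lower in the knockout, and Fyn, the one member whose transcript was higher. Capitals mark matches to 3 motifs, searched on both strands: the octamer ATGCAAAT, the Ets core AGGAAGT, and the paired half-sites of early B cell factor, CCCNNGGG. The Ets core was searched after the sequences had been seen, beside the longer GAGGAAGT, which contains it and had no match in the 7 windows.
Cd79a, chr7:24897247-24897496, plus strand: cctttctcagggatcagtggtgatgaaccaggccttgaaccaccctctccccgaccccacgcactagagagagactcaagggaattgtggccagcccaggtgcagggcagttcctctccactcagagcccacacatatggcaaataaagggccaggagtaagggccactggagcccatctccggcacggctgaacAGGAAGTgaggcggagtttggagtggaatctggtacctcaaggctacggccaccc
Blnk, chr19:40994222-40994471, minus strand: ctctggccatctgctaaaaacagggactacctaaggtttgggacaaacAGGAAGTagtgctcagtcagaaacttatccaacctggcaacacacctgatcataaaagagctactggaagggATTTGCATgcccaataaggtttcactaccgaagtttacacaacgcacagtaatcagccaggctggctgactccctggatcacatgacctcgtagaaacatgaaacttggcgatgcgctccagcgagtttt
Fyn, chr10:39369549-39369798, plus strand: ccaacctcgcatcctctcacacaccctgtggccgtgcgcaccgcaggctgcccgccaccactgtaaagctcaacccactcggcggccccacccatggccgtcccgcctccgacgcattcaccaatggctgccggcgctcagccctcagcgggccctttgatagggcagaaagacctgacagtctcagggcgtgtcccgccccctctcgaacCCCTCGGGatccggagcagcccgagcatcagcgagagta
The capitals in Cd79a are 1 Ets core, 55 to 49 bases before the start. Blnk held the Ets core at 202 to 196 bases before the start and 1 octamer, on the opposite strand, at 130 to 123. Fyn held neither, and 1 pair of half-sites at 39 to 32 bases before the start. Btk and Syk, whose transcripts were also lower, held none of the 3 motifs in their windows (1 for Btk, 2 for Syk), and neither did Plcg2. Of all 32851 promoter windows of this length, 7.69% held the Ets core, 1.6% the octamer, 11.8% the half-sites, 2.44% GAGGAAGT and 66.2% the E box CANNTG, which had 2 matches in Cd79a, 3 in Blnk and 0 in Fyn. The Fyn window was the richest in G and C of the 3, at 67.2% against 58.8% for Cd79a and 47.6% for Blnk, beside a median of 52.4% over all windows. GENCODE M21 starts the Cd79a gene at 24897381, inside the printed window, and places the start of Blnk and of Fyn upstream of the printed windows.

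Total counts ranged from 26211372 to 40647384 per library. Levels are given as CPM, counts scaled to a common library total. Tnpo3, the targeted gene, measured 159 CPM in control 55, 148 CPM in control 69, 79.7 CPM in knockout 51 and 68.8 CPM in knockout 63, with a log2 fold change of -1.05 ± 0.14 (SE) and an adjusted p of 0.0108 in edgeR, or 0.0603 if knockout 63 is left out. These are counts over the whole gene, so transcript of exons outside the floxed part is included. The labelled cell type was checked against 10 pro-B markers, all detected in every library. Their summed level ranged from 6725 to 8967 CPM in the controls and from 2458 to 3055 CPM in the knockouts, and 6 of the 10 fell and 0 rose. Markers of other cells moved in the same libraries. Of 10 plasmacytoid dendritic cell markers 9 rose, with sums of 696 to 1398 CPM in controls and 7761 to 10468 CPM in knockouts. Of 7 conventional dendritic cell markers 5 rose (35.8 to 77.1 CPM and 720 to 872 CPM), and of 8 NK cell markers 5 rose (37.3 to 38.1 CPM in controls, 752 CPM in knockout 51 and 215 CPM in knockout 63). Of 8 T cell markers, 7 of them tested, 2 rose (3.42 to 4.80 CPM and 42.2 to 60.9 CPM). Of 8 neutrophil and monocyte markers 7 fell (2577 to 3285 CPM and 53.6 to 187 CPM). The eosinophil, basophil and mast cell list (5 of 6 fell) and the erythroid list (6 of 6 fell) summed to at most 5.84 CPM in a knockout. No marker was at 0 counts in both libraries of a genotype. In bulk RNA, fewer cells of a type and less RNA of a gene per cell cannot be told apart, and the part of these marker shifts in the results below was not tested.

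The question put to the 9 genes was whether their transcripts differed between knockout and control pro-B cells. Of the 9, 6 fell (Cd79a, Cd79b, Blk, Syk, Btk and Blnk), 1 rose (Fyn) and 2 did not pass the test (Lyn and Plcg2), at an adjusted p below 0.05 in edgeR's quasi-likelihood test over all genes. Over all 13507 genes tested 10.9% were called lower and 11.3% higher. The median log2 fold change of the 9 genes was -0.90, against -0.02 over all genes tested. The libraries of the genotypes did not overlap for the 7 genes called, 6 of them lower and 1 higher in both knockouts, and overlapped for Lyn and Plcg2. Such a separation was common, with 34.6% of all genes tested lower in both knockouts and 33% higher.

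**Figure D1:**
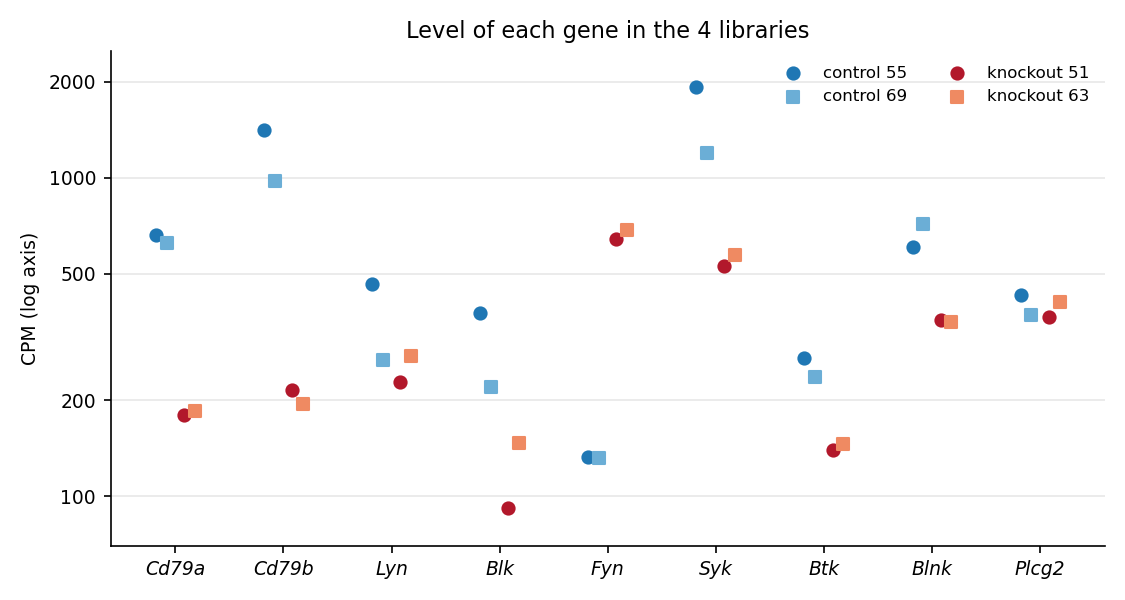
Level of each of the 9 genes in CPM (log axis) in controls 55 and 69 (blue) and knockouts 51 and 63 (red and orange), 1 point per library. Both knockouts lie below both controls for Cd79a, Cd79b, Blk, Syk, Btk and Blnk and above them for Fyn, and the genotypes overlap for Lyn and Plcg2.

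The receptor chains came first in the pathway and had the steepest falls among the 9. Cd79b (Ig-beta, ENSMUSG00000040592.11, GRCm38 chromosome 11, 106311341 to 106314762, minus strand) measured 1415 CPM in control 55 and 975 CPM in control 69, against 216 CPM in knockout 51 and 194 CPM in knockout 63. Each knockout was thus far below each control, while the controls differed more from each other than the knockouts did. The fitted level was 5.83-fold lower, a log2 fold change of -2.54 ± 0.24 (SE), with an adjusted p of 0.00615 in edgeR. Cd79a (Ig-alpha, ENSMUSG00000003379.7, chromosome 7, 24897381 to 24902197, plus strand) measured 658 CPM in control 55 and 624 CPM in control 69, against 180 CPM in knockout 51 and 185 CPM in knockout 63. Libraries of 1 genotype lay close together, at 641 ± 24.3 and 183 ± 3.47 CPM (SD, n = 2). Cd79a was 3.51-fold lower, with a log2 fold change of -1.81 ± 0.15 and an adjusted p of 0.00497 in edgeR. With any 1 library left out both genes stayed past the threshold, at -1.85 to -1.74 for Cd79a and -2.79 to -2.22 for Cd79b.

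The pair was also compared within each library. The ratio of Cd79b to Cd79a counts, which does not depend on how libraries are scaled, stood at 2.15 (control 55) and 1.56 (control 69), against 1.20 (knockout 51) and 1.05 (knockout 63). It was 1.64-fold lower in the knockouts (-0.71 on the log2 scale), and the genotypes did not overlap. With 2 libraries against 2 the smallest p of an exact permutation test is 1 in 3, so that no test of this or any other ratio is given. Whether transcript from the Cre-carrying allele adds to the Cd79a count was not tested, and both genotypes carry it.

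The Src-family kinases changed in different directions. Blk (ENSMUSG00000014453.4, chromosome 14, 63372836 to 63417037, minus strand), a family member largely restricted to B cells, measured 376 CPM in control 55 and 221 CPM in control 69, against 91.9 CPM in knockout 51 and 147 CPM in knockout 63. The gap between the genotypes, from 221 to 147 CPM, was smaller than the difference between the controls. Its log2 fold change of -1.32 ± 0.34 (SE) passed with an adjusted p of 0.0465 in edgeR, close to the threshold. Without control 55 it was at -0.85 and without knockout 51 at -1.02, with adjusted p-values of 0.0593 and 0.141, and the call was also lost with the size factors of DESeq2 (0.0504) and with a stricter filter (0.0546).

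Lyn (ENSMUSG00000042228.14, chromosome 4, 3678115 to 3813122, plus strand), which both starts receptor signalling and activates its inhibitors, measured 462 CPM in control 55 and 269 CPM in control 69, against 228 CPM in knockout 51 and 275 CPM in knockout 63. Control 55 stood above the rest, and control 69 lay between the knockouts. The log2 fold change was -0.54 ± 0.28, with a 95% interval of -1.25 to 0.18 and an adjusted p of 0.227 in edgeR, so that no difference was shown, and the interval reaches from a marked fall to a slight rise. It was -0.06 without control 55 and -0.88 without control 69, in which case the threshold was met (adjusted p of 0.0185). Of the exon bases of Lyn, 6.09% overlap a long non-coding RNA gene on the opposite strand, Gm26857, and for the other 8 genes no exon shared with another annotated gene was found.

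Fyn (ENSMUSG00000019843.14, chromosome 10, 39368855 to 39565381, plus strand), a kinase that also serves T cell, NK cell and myeloid receptors, measured 133 CPM in control 55 and 132 CPM in control 69, against 642 CPM in knockout 51 and 683 CPM in knockout 63. The controls were nearly equal and both knockouts were far above them. Fyn was 5.01-fold higher, a log2 fold change of 2.32 ± 0.15, with the lowest adjusted p of the 9 genes (0.00445 in edgeR), and it stayed between 2.28 and 2.37 with any 1 library left out. The summed markers of plasmacytoid dendritic, conventional dendritic, NK and T cells were higher in the same 2 libraries, and their part in the Fyn level was not tested.

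The shares of the 3 kinases did not overlap between the genotypes. As shares of their summed CPM per kilobase of exon, Fyn made up 10.8% (control 55) and 16.9% (control 69), against 62.0% (knockout 51) and 56.2% (knockout 63). Blk made up 49.2% (control 55) and 46.0% (control 69), against 14.4% (knockout 51) and 19.6% (knockout 63). Lyn made up 40.1% and 37.1%, and then 23.6% and 24.3%. The shares are parts of 1 sum, so a higher share of Fyn lowers the others, and the CPM of Lyn itself overlapped between the genotypes. How often shares or ratios of other genes separate the genotypes was not counted. The ratio of Fyn to Blk counts stood at 0.354 (control 55) and 0.595 (control 69), against 6.99 (knockout 51) and 4.63 (knockout 63), 12.4-fold higher. Counts of Lyn per count of Blk were 1.23 and 1.22 in the controls, and 2.48 and 1.87 in the knockouts, with no overlap.

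**Figure D2:**
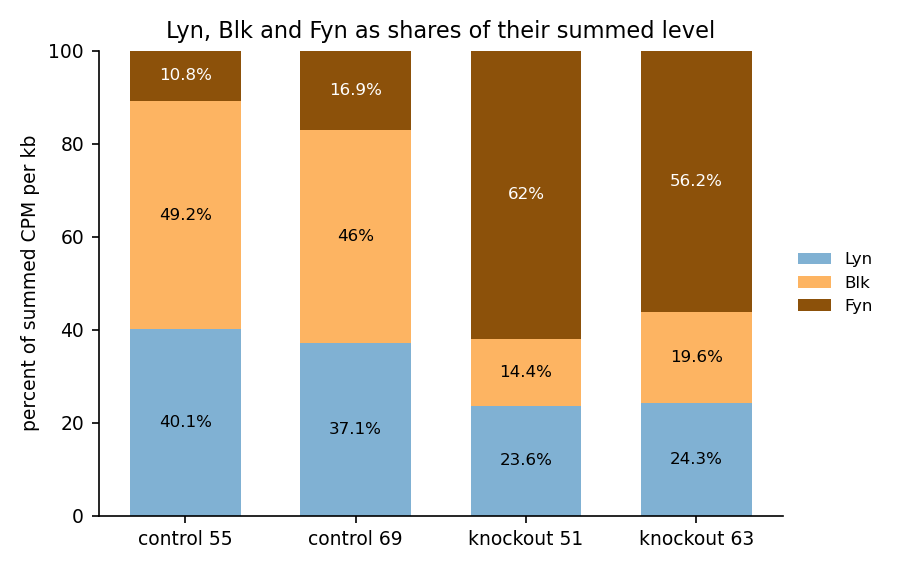
Lyn, Blk and Fyn as percent of their summed CPM per kilobase of exon, 1 bar per library. The share of Fyn is 10.8% and 16.9% in the controls and 62.0% and 56.2% in the knockouts.

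Downstream of the Src kinases, Syk (ENSMUSG00000021457.14, chromosome 13, 52583173 to 52648792, plus strand), the kinase that binds the phosphorylated ITAM, measured 1927 CPM in control 55 and 1197 CPM in control 69, against 527 CPM in knockout 51 and 572 CPM in knockout 63. The knockouts were close to each other and both were below the lower control. Syk was 2.84-fold lower, with a log2 fold change of -1.51 ± 0.28 (SE) and an adjusted p of 0.0204 in edgeR. The adjusted p was 0.0757 without knockout 51 and 0.0600 without knockout 63, at log2 fold changes of -1.45 and -1.56.

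Btk (ENSMUSG00000031264.13, chromosome X, 134542336 to 134583570, minus strand), the Tec-family kinase that activates Plcg2, measured 271 CPM in control 55 and 238 CPM in control 69, against 140 CPM in knockout 51 and 146 CPM in knockout 63. The genotypes were clearly apart, with a 1.78-fold lower level, a log2 fold change of -0.83 ± 0.14 and an adjusted p of 0.0172 in edgeR. Blnk (ENSMUSG00000061132.13, chromosome 19, 40928927 to 40994535, minus strand), the adaptor that joins Syk to Btk and Plcg2, measured 605 CPM in control 55 and 717 CPM in control 69, against 357 CPM in knockout 51 and 352 CPM in knockout 63. Blnk was 1.86-fold lower, at -0.90 ± 0.17, with an adjusted p of 0.0215 in edgeR. Btk and Blnk lost their calls without either knockout, with adjusted p-values of 0.0930 and 0.102 without knockout 51 and 0.0898 and 0.105 without knockout 63, while their log2 fold changes stayed between -0.98 and -0.70.

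Plcg2 (ENSMUSG00000034330.10, chromosome 8, 117498291 to 117635142, plus strand), the phospholipase at the end of this chain, measured 428 CPM in control 55 and 372 CPM in control 69, against 365 CPM in knockout 51 and 407 CPM in knockout 63. All 4 libraries lay within a narrow range and the genotypes overlapped. The log2 fold change was -0.05 ± 0.16, with a 95% interval of -0.46 to 0.35 and an adjusted p of 0.842 in edgeR. Its sign turned with the libraries used, to 0.086 without control 55 and 0.024 without knockout 51.

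These genes were also set against Blnk within each library, which needs no scaling. Plcg2 per count of Blnk stood at 0.708 (control 55) and 0.519 (control 69), against 1.02 (knockout 51) and 1.15 (knockout 63), 1.79-fold higher with no overlap. Btk per count of Blnk stood at 0.448 (control 55) and 0.331 (control 69), against 0.392 (knockout 51) and 0.415 (knockout 63), and overlapped. Syk per count of Blnk was 3.19 in control 55 but 1.67 in control 69, beside 1.48 and 1.63 in the knockouts, and its log2 change of -0.57 was -0.11 without control 55.

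**Figure D3:**
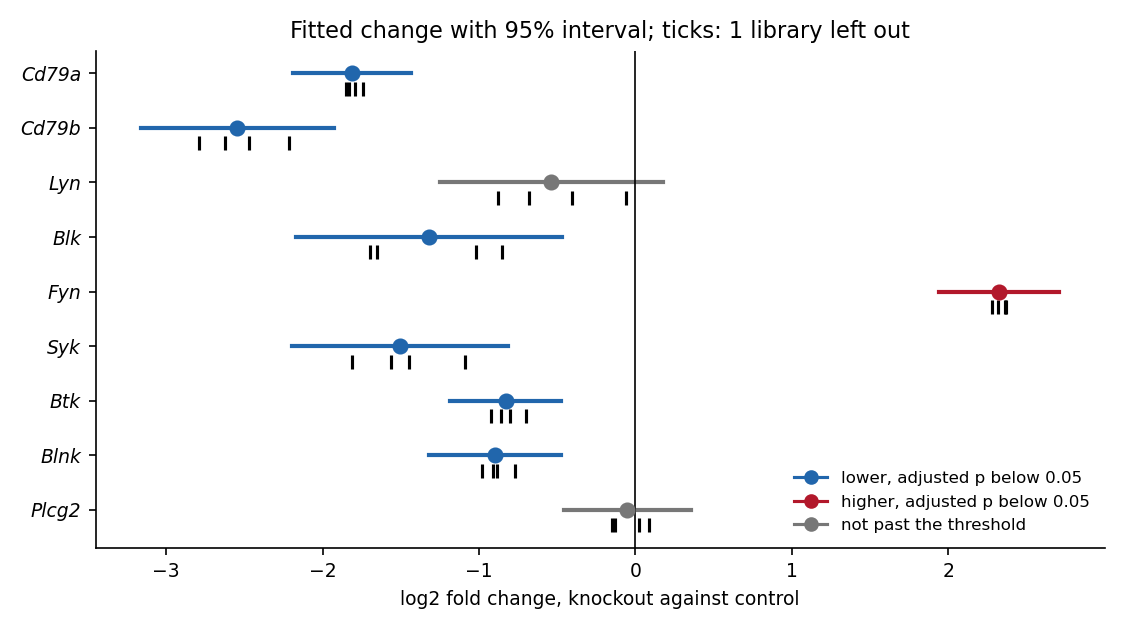
Fitted log2 fold change of each gene (points) with its 95% interval (lines), and the values with each of the 4 libraries left out (ticks). The intervals of Lyn and Plcg2 include 0, those of the other 7 genes do not, and Fyn is alone on the right at 2.32.

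The number of members called lower depended on both knockout libraries. It was 2 without knockout 51 (Cd79a and Cd79b) and 3 without knockout 63 (Cd79a, Cd79b and Blk), and the calls over all genes shrank in the same fits, from 1468 lower to 712 and 530. In each of these fits 1 member, Fyn, was called higher. Each genotype held 1 female and 1 male, read from Xist against the Y-linked gene Ddx3y. The log2 ratio of knockout to control was negative in both the female and the male pair for the 8 genes other than Fyn. It was -2.86 and -2.18 for Cd79b, -1.75 and -1.18 for Syk, -0.75 and -0.24 for Lyn, and -0.07 and -0.03 for Plcg2. For Fyn it was 2.36 in the female and 2.29 in the male pair. Where the libraries of the genotypes did not overlap, any pairing gives the same sign. For Lyn and Plcg2, which overlapped, the sign depends on which libraries are paired.

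Levels were compared between genes only as CPM per kilobase of annotated exon. In the controls the receptor chains led, with 835 ± 217 for Cd79b and 440 ± 16.7 for Cd79a (SD, n = 2), followed by Syk at 167 ± 55.1, whose range over libraries overlapped that of Blk. Blk (111), Blnk (110), Plcg2 (93.0), Lyn (89.7) and Btk (80.8) came next, and the ranges over libraries overlapped between neighbours except between Blnk and Plcg2. Fyn was the lowest of the 9, at 30.3 ± 0.253. In the knockouts Fyn was the highest, at 152 ± 6.62, and overlapped with Cd79b at 143 ± 10.5. Cd79a (125) and Plcg2 (89.8) followed without overlap. Lyn (61.8), Blnk (59.2) and Syk (58.7) overlapped in turn, as did Btk (45.4) and Blk (44.3). With the longest transcript as the length, Syk was at 103 in the knockouts and moved from position 7 to position 4, and Fyn stayed first at 186.

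The genes closest in pattern were sought among 9135 genes, as the smallest root-mean-square difference of centred log2 CPM over the 4 libraries. This is a description over 4 libraries, in which many genes separate the genotypes. Nearest to Cd79a was Mbd4, a DNA glycosylase gene, at a difference of 0.0669, then Hist1h2bc and Atg16l2. Nearest to Cd79b was the transcription factor gene Irf4 at 0.0823, then Atf3 and Mylip. Nearest to Fyn was Selplg, which encodes a selectin ligand, at 0.0557, and its mean level was 177 CPM over controls against 837 CPM over knockouts. Blnk was nearest to Map4k2 (0.0150), Btk to Lrig2 (0.0182), Blk to Zfp296 (0.0687), Syk to Klhl24 (0.0354), Lyn to Zeb2 (0.0488) and Plcg2 to Ldah (0.00674). Among the 9 themselves the closest pair was Blnk and Btk, at 0.160, and to each of that pair at least 314 other genes were closer.

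The rest of the pathway, with related genes of other receptors and cells, was described by 8 lists with 102 genes, all tested. Of these 20 rose, 19 fell and 63 did not pass, with a median log2 fold change of -0.05. Thus 19.6% were called higher and 18.6% lower, against 11.3% and 10.9% of all genes tested. The list of chains of other receptors, whose 7 genes are not part of this pathway, gave 5 of the 20 rises and 0 of the falls. The pooled shares are therefore not those of the pathway alone. Of the 39 calls, 16 were lost without knockout 51, 12 without knockout 63, 6 without control 55 and 0 without control 69, and none changed sign.

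The list for the surrogate light chain, the extracellular partner of the heavy chain, held its component genes Vpreb1, Vpreb2 and Igll1. It also held the related gene Vpreb3, whose product is not a part of that chain. Of the 4 genes 1 fell, Vpreb3, and 0 rose (median -1.18). Vpreb3 fell from 702 and 780 CPM in the controls to 135 and 109 CPM in the knockouts, with a log2 fold change of -2.60 ± 0.19. Vpreb1 (-1.47), Igll1 (-0.88) and Vpreb2 (-0.38) did not pass in edgeR, although Vpreb1 did in 4 of 13 alternatives, DESeq2 among them, and Vpreb1 and Vpreb2 are near-identical copies whose reads may be shared. Control 69 was above the other 3 libraries for all 3 of these genes, for Igll1 at 990 CPM beside 326, 419 and 295 CPM. All 4 genes were called lower without control 55, and the list's median was -0.16 without control 69.

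Among 10 other Src-family kinases and their regulators 2 rose and 0 fell (median 0.54). Fgr, a kinase of myeloid cells, rose from 36.5 and 15.6 CPM in the controls to 226 and 302 CPM in the knockouts (3.34 ± 0.44). Src rose from a low level, 2.05 and 2.48 CPM, to 9.86 and 11.2 CPM. Lck, the T cell member, was at 1.02 ± 0.28 and missed the threshold at an adjusted p of 0.0527 in edgeR. It passed in 9 of 13 alternatives, among them DESeq2, limma-voom and the edgeR fit with sex as a block, and its adjusted p ranged from 0.00282 with that block to 0.197 without knockout 51. Pag1, an adaptor that recruits the inhibitory kinase Csk, was at 0.45 ± 0.14 and did not pass in edgeR, but passed in 3 of 13 alternatives. Among the alternatives passed by Lck, by Pag1 and by Txk below, 1 was the main fit at a looser threshold of 0.1. Of 5 other Syk and Tec family kinases 1 fell, Tec itself (-1.06 ± 0.22), and its call was lost without either knockout. Txk, a Tec kinase of T and NK cells, measured 19.1 CPM in knockout 51 and 1.96 CPM in knockout 63, beside 0.611 CPM in control 55 and 0.564 CPM in control 69, and did not pass in edgeR, but passed in 5 of 13 alternatives, DESeq2 among them. Bmx was at or below 2.54 CPM in every library and did not pass, except without knockout 51.

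The list of co-receptors and adaptors had 21 genes, of which 5 fell and 2 rose (median -0.08). Gab1 (-2.01) and Cr2 (-4.87) fell, and Cr2 was unequal in the controls, at 35.2 and 6.84 CPM. Gab1 lost its call without either knockout and Cr2 without knockout 51 and with limma-voom. Clnk, an adaptor of the same family as Blnk, rose from 0.764 and 0.376 CPM to 9.29 and 6.67 CPM (3.78 ± 0.49). Without knockout 51 or without knockout 63 the list had 3 genes lower and 1 higher.

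Of 24 genes of the branch that runs from phospholipase C-gamma to calcium and protein kinase C, 4 rose and 4 fell (median -0.31). Itpr1, a calcium release channel opened by the product of Plcg2, rose from 151 and 137 CPM in the controls to 419 and 601 CPM in the knockouts (1.82 ± 0.22). Nfatc2, a calcium-responsive transcription factor, rose from 6.42 and 4.89 CPM to 29.3 and 25.5 CPM. Prkca rose as well (1.59 ± 0.26). Dgka, which removes the diacylglycerol that Plcg2 makes, fell from 211 and 203 CPM to 61.8 and 50.7 CPM (-1.88 ± 0.15). Without knockout 51 or without knockout 63 the list had 2 genes lower.

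Of 11 genes of the phosphoinositide 3-kinase branch 2 rose and 4 fell (median -0.12). Pik3r5, a regulatory subunit, rose by 1.27 ± 0.17 on the log2 scale, and its catalytic partner Pik3cg fell from 176 and 152 CPM to 85.2 and 74.4 CPM (-1.04 ± 0.15). The catalytic subunit gene Pik3cb rose by 1.67 ± 0.26 and the regulatory subunit gene Pik3r2 was at -1.13 ± 0.17. The list had 1 gene lower without knockout 51 and 0 without knockout 63. Pik3r2 lost its call in both of these fits and Pik3cg in the second.

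Among 20 inhibitory receptors, phosphatases and ubiquitin ligases 5 rose and 4 fell (median 0.01). Dok3, an adaptor that restrains B cell receptor signalling, fell from 545 and 413 CPM in the controls to 15.6 and 18.5 CPM in the knockouts (-4.81 ± 0.23). Siglecg, an inhibitory lectin receptor of B cells, fell from 771 and 454 CPM to 111 and 144 CPM. Sla2, an adaptor that dampens antigen receptor signalling, rose from 8.96 and 4.55 CPM to 85.3 and 118 CPM (3.90 ± 0.39), and the inhibitory receptor gene Cd300a rose from 9.14 and 6.31 CPM to 42.1 and 52.4 CPM. The list had 8 genes higher without control 55 and 3 without knockout 51.

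Receptors of other blood cells signal through chains of their own. Of 7 such genes 5 rose and 0 fell (median 3.34), and Cd3d and Cd3e did not pass, at adjusted p of 0.0808 and 0.0567 in edgeR. Tyrobp, the ITAM chain of many myeloid and NK cell receptors, rose from 99.5 and 40.2 CPM in controls 55 and 69 to 726 and 691 CPM in knockouts 51 and 63 (3.34 ± 0.45). Fcer1g, the common chain of Fc receptors, rose from 40.0 and 22.7 CPM to 229 and 221 CPM (2.84 ± 0.29). Both knockouts were far above both controls for these chains, and close to each other. Cd247 rose from 2.48 and 4.36 CPM to 29.8 and 18.9 CPM. Hcst, whose product DAP10 pairs with NK cell receptors but carries another motif than the ITAM, rose by 1.65 ± 0.40 and lost its call without control 55 and without knockout 51. Cd3g was at 13.6 CPM in knockout 51 and 2.22 CPM in knockout 63 and lost its call in the same 2 fits and with limma-voom. Cd3d, Cd3e and Cd3g are also T cell markers above. The list's median was 2.04 without knockout 51, with 3 genes higher, and 3 genes were called without control 55.

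**Figure D4:**
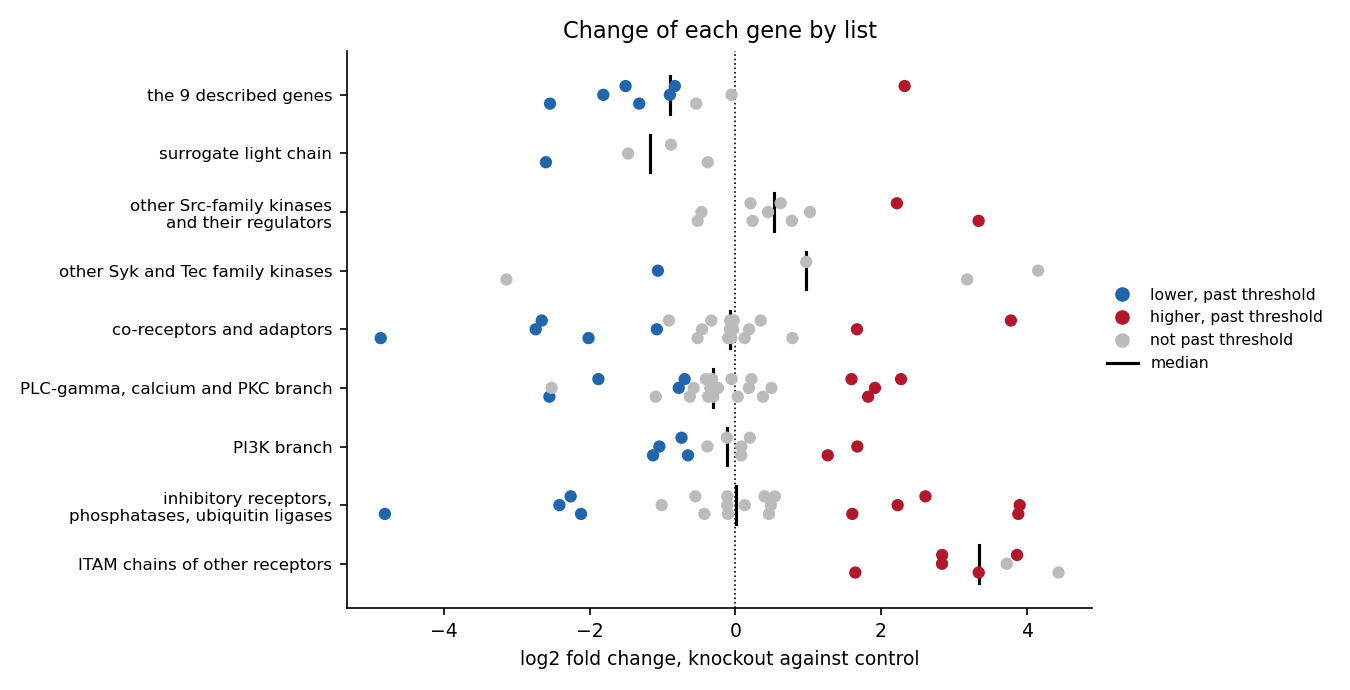
Log2 fold change of each gene, grouped by list, with the median of each list as a black line and genes past the threshold in blue (lower) or red (higher). The 9 described genes have a median of -0.90, and the chains of other receptors a median of 3.34 with 0 genes below 0.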

How the data were processed

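RNA was sequenced from 4 libraries, 1 per mouse. Per the labels' protocols, RNA was isolated with an RNeasy kit and libraries were made with a NEBNext low input kit. The builds GRCm38 and mm10 and the tools featureCounts (Subread 2.0.0), STAR 2.7.4a, DESeq2, deepTools 3.3.2 and SAMtools 1.10 are named per the submitters' processing notes. The sources used here do not state the annotation, strand or multi-mapping settings. The authors deposited raw counts for 24411 symbols, and a second table of normalized signal, each value a count times 1 factor per library (0.816 to 1.22), used in 1 alternative.

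Counts were tested with edgeR 4.0.16 in R 4.3.3 (filterByExpr with a minimum count of 10 and total of 15, TMM, glmQLFit, glmQLFTest, no covariates), with Benjamini-Hochberg adjustment over all 13507 genes and a threshold of 0.05. The procedure was also run on simulated counts with changes in random directions and no shift of cell types. The outcome is not given here, and no result rests on it. CPM use TMM-scaled totals, and 3 counts correspond to 0.0743 to 0.113 CPM. SE is the log2 fold change over the square root of F. The chi-square of replicate counts averaged 71.7 per gene for controls and 51.9 for knockouts, so no library repeated another. Exon lengths, coordinates and overlaps are from GENCODE M21 (GRCm38), and promoters from RefSeq. Protein sequences were not analysed here. Named genes were the 9 members, Tnpo3, the up to 4 genes of lowest adjusted p in each list, and the 3 nearest genes in pattern; Cd3g, Cd3d and Cd3e were added after their values were seen. Some genes that the rule names are left out of the text. Members and lists were chosen with earlier results of these data known. Alternatives used DESeq2 1.42.0, limma 3.58.1, other scalings and filters, a threshold of 0.1 on the main fit, and sex as a block. Others left each library out, which assumes that the lone library of a genotype varies like the others.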

Additional observations from a re-analysis of the deposited data

How the results depend on the processing

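For the 9 log2 fold changes there were 117 alternatives, 13 per gene. Of these, 104 kept their direction and side of the threshold, 10 lost the call and 1 gained it (Lyn without control 69). The other 2 changed sign, both for Plcg2 (-0.15 to 0.086 with a library left out, above 0 without control 55 and without knockout 51). In 1 of the 13 only the threshold was raised, to 0.1, so its values could not move and no call could be lost. Igll1 (-1.44 to 0.13) and Vpreb2 (-0.93 to 0.61) changed sign without control 69. With single libraries left out, members called lower ranged from 2 to 7, with 1 higher in every fit. Genes of the pathway lists called lower ranged from 10 to 23. Over all genes, 747 to 1649 were called higher and 530 to 1580 lower with a library left out, and 2232 were lower at a false discovery rate of 0.1. For ratios between genes, all 30 refits stayed within the spread between libraries, but this was fixed in advance. With 2 libraries per genotype, leaving 1 out cannot move the change by more than that spread, and scaling cancels in a ratio. The Syk to Blnk change was much closer to no change without control 55, as given above. With the longest transcript as length, CPM per kilobase in controls and knockouts were 146 and 78.2 for Blnk, 100.1 and 56.3 for Btk, 291 and 103 for Syk, 37.1 and 186 for Fyn, and, in knockouts, 72.7 for Lyn. The longest annotated Blnk transcript has only 3 exons, and whether it is the form present in these cells was not tested. The genotypes share no mouse number, so no replicate number pairs them. With sex as a block, which pairs the females and the males of both genotypes, 6 members were lower and 1 higher. The 2 libraries per genotype limit the precision more than the counts, of which each member had at least 3500 in each library.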
